A study of Homo sapiens with 6 samples.

Results

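The 10 human globin genes HBE1, HBG1, HBG2, HBD, HBB, HBZ, HBA1, HBA2, HBM and HBQ1 were followed in RNA-Seq libraries of K562 cells. They were taken by symbol from a table of raw gene counts, where all 10 of them are listed among 19330 genes, and 8 of them passed the filter on low counts and were tested. K562 is an established human chronic myelogenous leukemia line with erythroid features. The study asked how depletion of N6AMT1, a methyltransferase of the cytosol and nucleus, affects gene expression, with an emphasis on mitochondria.

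The cells were transduced with lentiviral pLentiCRISPRv2, which carries Cas9 and 1 sgRNA, and selected with puromycin. Control cells (sgCtrl) received sgRNAs against olfactory receptor genes, named OR11A1 and OR2M49 in the sample labels. N6AMT1-depleted cells (sgN6AMT1) received sgRNAs against N6AMT1. Each condition has 3 libraries, each from its own lentiviral infection, collected 10 days post infection. Both conditions carry the vector and passed the selection. The cells were pools of edited cells and not clones, and the labels do not say which sgRNA went into which library. Their molecule field reads polyA RNA, whereas their protocol describes a stranded total RNA kit with rRNA depletion.

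Hemoglobin is a tetramer of alpha-like and beta-like globin chains, each of which holds a heme. The beta-like genes and the alpha-like genes form separate clusters, in which embryonic genes are used first in development, then fetal and adult ones in the beta cluster and adult ones in the alpha cluster. K562 cells are known for expressing embryonic and fetal globins and very little adult beta globin.

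In GENCODE v44 (GRCh38), the 5 beta-like genes lie on the minus strand of chromosome 11. The representative transcripts run from HBE1 (chr11:5268345-5269945), the embryonic epsilon globin, through HBG2 (chr11:5253188-5254781) and HBG1 (chr11:5248269-5249857), the fetal gamma globins, to HBD (chr11:5232838-5234483), the delta globin of the minor adult hemoglobin, and HBB (chr11:5225464-5227071), the adult beta globin. The alpha-like genes lie on the plus strand of chromosome 16. These are HBZ (chr16:152644-154503), the embryonic zeta globin, HBM (chr16:165978-166764), the mu globin, HBA2 (chr16:172876-173710) and HBA1 (chr16:176680-177522), the alpha globins of fetal and adult life, and HBQ1 (chr16:180459-181179), the theta globin. All values below come from counts per gene.

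The transcript sequences limit how the counts of near-identical genes can be read. Of all stretches of 60 bases, the read length, in the HBG1 transcript, 65.0% also occur in HBG2, and 65.1% of those of HBG2 occur in HBG1. For the alpha globins the shares are 81.3% of HBA1 and 81.4% of HBA2. How reads that fit both genes were counted is not given in the sources used here, so each pair is described as a pair. Of the HBE1 stretches, 81.2% also occur in a gene model of this annotation without a symbol that spans the cluster. The fetal genes share stretches with gene models without a symbol too. With these and the other gene of the pair, 88.4% of the HBG1 stretches and 76.5% of those of HBG2 occur in another gene. The exons of HBE1 and HBG2 share 37 bases. Of the HBZ stretches, 40.3% occur in HBM or the pseudogene HBZP1. In this annotation the exons of HBZ and HBM share 205 bases, which limits the HBZ counts and the HBM count of 0. The representative transcripts of HBB, HBD, HBM and HBQ1 share none.

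The control libraries held 742470, 866894 and 866155 counts and the sgN6AMT1 libraries 959319, 5526904 and 4062363, always given as replicates 1, 2 and 3. N6AMT1 itself had 6, 5 and 9 counts in sgCtrl (8.08, 5.77 and 10.4 cpm, counts per 1000000 counts of the library). In sgN6AMT1 it had 0, 18 and 16 counts (0, 3.26 and 3.94 cpm). The depleted cells were thus lower in all 3 libraries, but the control values rest on few counts and are uncertain. The 0 in sgN6AMT1 replicate 1 allows up to 3 counts, or 3.13 cpm. The share of counts on the 13 mt-DNA-encoded genes was 3.21% to 5.26% in control cells and 0.461% to 1.92% in sgN6AMT1. Levels below are TMM-normalized cpm, that is cpm after trimmed-mean scaling between libraries.

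The erythroid markers GATA1, TAL1, KLF1 and TFRC were detected in every library, with TFRC, the transferrin receptor, at 921 to 1237 TMM-normalized cpm. The platelet genes GP9 and PF4 were at 0 in all 6 libraries. The megakaryocyte genes ITGA2B and ITGB3 had 6, 4 and 2 and 7, 9 and 3 counts in control cells. In sgN6AMT1 they had 0, 17 and 11 and 0, 42 and 23 counts. PPBP had 0, 1 and 0 counts in control cells and 0, 0 and 2 in sgN6AMT1. Of 24 megakaryocyte markers 10 were at 0 throughout, and their summed level was 114 to 144 TMM-normalized cpm in control cells and 125 to 162 in sgN6AMT1. The 16 markers of other cell types summed to 208 to 247 in control cells and 205 to 242 in sgN6AMT1. Of that sum, EPCAM alone made up 98.2 to 170 TMM-normalized cpm, and MS4A1, ELANE, KRT5 and CDH5 were at 0. Of the 4 tested, LYZ, the lysozyme of myeloid cells, was called higher in sgN6AMT1 (log2 fold change 0.83, adjusted p = 0.0489, edgeR) but not by DESeq2 (adjusted p = 0.0930), and its part in the values below was not tested.

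Among the globins, HBE1, HBG1 and HBG2 were higher in sgN6AMT1 than in sgCtrl, by 1.85-fold, 2.06-fold and 2.07-fold. The alpha globins HBA1 and HBA2 were at 1.04-fold and 1.03-fold, and HBZ was at 0.763-fold without passing the threshold. Globins were tested together with all other genes by the quasi-likelihood test of edgeR, and a gene was called at an adjusted p (Benjamini-Hochberg over the 8324 genes tested) under 0.05. Of the 8 globins tested 3 were called, against 9.85% of all genes tested. All 3 were higher, the direction in which 5.09% of all genes were called, and 0 were lower, against 4.76% of all genes. HBG1 and HBG2 share most of their sequence and are not separate evidence.

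**Figure D1:**
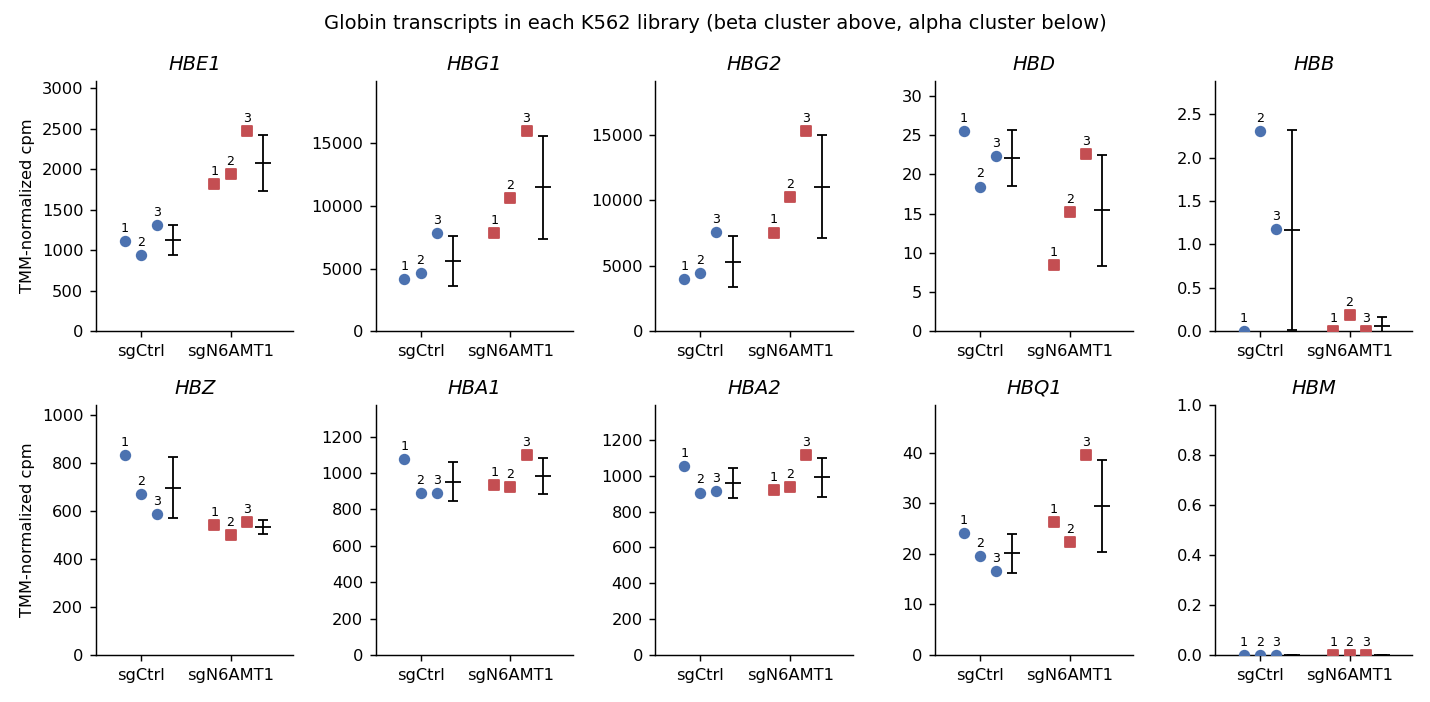
Level of each globin gene (vertical axes, TMM-normalized cpm, linear, each panel with its own range) in the 3 sgCtrl (circles) and 3 sgN6AMT1 (squares) libraries, numbered by replicate, with the mean and SD of each condition in black. HBE1 separates the conditions upward and HBZ downward, HBG1 and HBG2 meet at sgCtrl replicate 3 and sgN6AMT1 replicate 1, and HBM is at 0 in all 6 libraries.

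The embryonic beta-like gene HBE1 had 829, 818 and 1113 counts in control cells and 1719, 10651 and 9609 counts in sgN6AMT1, in that order. Scaled to depth, these were 1114, 944 and 1312 TMM-normalized cpm in control cells and 1811, 1944 and 2470 in sgN6AMT1. All 3 sgN6AMT1 libraries lay above all 3 sgCtrl libraries, which was also the case, in either direction, for 29.2% of all genes tested. The mean level was 1123 ± 184 in control and 2075 ± 349 in depleted cells (SD, n = 3 each). HBE1 rose by 0.89 on the log2 scale (SE 0.17, adjusted p = 0.00414, edgeR), and by 0.86 (adjusted p = 1.83e-05) with DESeq2. Without sgCtrl replicate 2, the lowest library, the change was 0.77 with an adjusted p of 0.0561 in edgeR. A change in the number of cells with a transcript and a change in its amount per cell cannot be told apart in these bulk libraries, here or for any gene below.

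HBZ, the embryonic alpha-like gene, lay lower and not higher in sgN6AMT1. Its counts were 621, 582 and 498 in control cells and 515, 2741 and 2157 in sgN6AMT1, which gave 834, 671 and 587 TMM-normalized cpm in control cells and 543, 500 and 555 in sgN6AMT1. The conditions did not overlap, with sgCtrl replicate 3 the nearest control library. The means were 698 ± 126 and 532 ± 28.5 (SD, n = 3 each). The log2 fold change of HBZ was -0.39 (SE 0.15, adjusted p = 0.116, edgeR), so HBZ was not called. Without sgCtrl replicate 1, the highest library, it was at -0.25 (adjusted p = 0.401, edgeR). When a trend of the log2 values with transcript GC content and length was removed from each library, an alternative chosen after seeing the data, HBZ was at -0.62 with an adjusted p of 0.0133 and was called along with 11.1% of all genes. The cause of that difference was not tested.

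HBG1 and HBG2, the A-gamma and G-gamma chains of fetal hemoglobin, were the most abundant globin transcripts in every library. HBG1 had 3112, 4055 and 6678 counts in control cells and 7466, 58150 and 62170 counts in sgN6AMT1. Its levels were 4182, 4678 and 7873 TMM-normalized cpm in control cells and 7867, 10613 and 15983 in sgN6AMT1. The conditions met at a single point, where sgCtrl replicate 3 and sgN6AMT1 replicate 1 had nearly the same level, and both sgN6AMT1 replicates 2 and 3 lay above all controls. By raw count, HBG1 ranked 8th, 5th and 2nd of all genes in control cells and 2nd in each sgN6AMT1 library.

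HBG2 had 2966, 3842 and 6402 counts in control cells and 7153, 56047 and 59457 counts in sgN6AMT1, or 3986, 4433 and 7547 TMM-normalized cpm against 7538, 10230 and 15285. Its libraries fell in the same order as those of HBG1. HBG2 ranked 10th, 7th and 3rd of all genes by count in control cells and 3rd in each sgN6AMT1 library.

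The mean level of HBG1 was 5578 ± 2003 in control cells and 11488 ± 4128 in sgN6AMT1, and that of HBG2 was 5322 ± 1940 and 11017 ± 3934 (SD, n = 3 each). HBG1 rose by 1.04 on the log2 scale (SE 0.25, adjusted p = 0.0149, edgeR) and HBG2 by 1.05 (SE 0.25, adjusted p = 0.0144, edgeR). With both genes summed to 1 row before the fit, the change was 1.05 (adjusted p = 0.0152, edgeR). The 95% interval of the HBG1 fold was 1.46 to 2.90. The call depended on the tool and on the control libraries. DESeq2 gave 1.02 for HBG1 and 1.03 for HBG2 with adjusted p-values of 0.117 and 0.116, and called 1 of the globins, HBE1, against 6.70% of all genes. Without sgCtrl replicate 1 the adjusted p of HBG1 in edgeR was 0.0756 (HBG2, 0.0743), and without sgCtrl replicate 2 it was 0.111 (HBG2, 0.110). The log2 fold change of HBG1 was 0.87 and 0.92 in these fits. Over all genes they called 301 and 220, against 820 with all libraries. The log2 fold change of HBG1 ran from 0.73 without sgN6AMT1 replicate 3 to 1.37 without sgCtrl replicate 3.

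**Figure D2:**
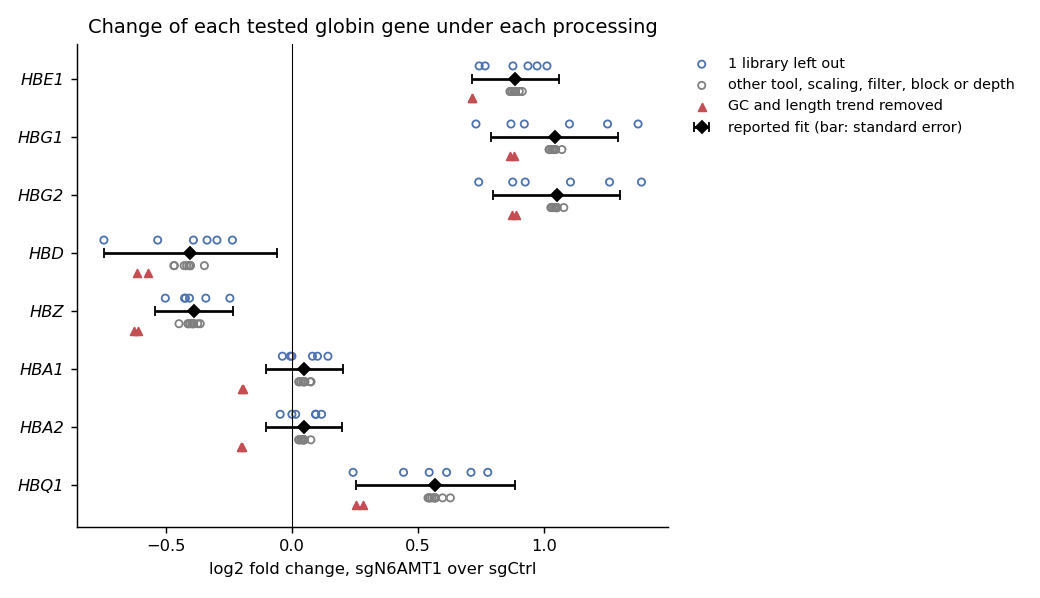
Log2 fold change of each tested globin gene (horizontal axis, sgN6AMT1 over sgCtrl) in the reported edgeR fit (diamond, with its standard error) and under each alternative (open circles and triangles). HBE1, HBG1 and HBG2 stay above 0 throughout, HBZ and HBD below it, and HBA1 and HBA2 lie on either side of 0.

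HBA1 and HBA2 encode the same alpha globin protein. HBA1 had 803, 773 and 755 counts in control cells and 889, 5046 and 4282 in sgN6AMT1, and HBA2 had 785, 786 and 778 in control cells and 875, 5126 and 4347 in sgN6AMT1. The levels of HBA1 were 1079, 892 and 890 TMM-normalized cpm in control cells and 937, 921 and 1101 in sgN6AMT1, and the ranges of the conditions overlapped. The means of HBA1 were 954 ± 109 and 986 ± 99.6, and those of HBA2 were 960 ± 82.6 and 992 ± 109 (SD, n = 3 each). The log2 fold change was 0.05 for both HBA1 (adjusted p = 0.877, edgeR) and HBA2 (adjusted p = 0.878, edgeR), with 95% intervals of the fold from 0.842 to 1.27 for HBA1 and from 0.843 to 1.27 for HBA2. With the trend of GC content and length removed, both were at -0.20 and not called.

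The adult beta-like genes were low. HBD had 19, 16 and 19 counts in control cells and 8, 83 and 88 in sgN6AMT1, or 25.5, 18.5 and 22.4 TMM-normalized cpm against 8.43, 15.1 and 22.6. The lowest level was in sgN6AMT1 replicate 1, and the conditions overlapped. HBD was at 22.1 ± 3.54 and 15.4 ± 7.10 (SD, n = 3 each) with a log2 fold change of -0.40 (SE 0.34, adjusted p = 0.492, edgeR). HBB had 0, 2 and 1 counts in control cells and 0, 1 and 0 in sgN6AMT1, all within what a count of 0 allows, and the edgeR filter left it out. A count of 0 allows up to 3 counts, which is 3.46 to 4.04 cpm in control cells and 0.543 to 3.13 cpm in sgN6AMT1. HBB was thus not detectable at this depth in either condition.

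Of the minor alpha-like genes, HBM had 0 counts in all 6 libraries. HBQ1, whose product is not known to enter a hemoglobin, had 18, 17 and 14 counts in control cells and 25, 122 and 154 in sgN6AMT1. Its levels were 24.2, 19.6 and 16.5 TMM-normalized cpm in control cells and 26.3, 22.3 and 39.6 in sgN6AMT1, with sgN6AMT1 replicate 3 the highest and replicate 2 inside the control range. HBQ1 was at 20.1 ± 3.86 and 29.4 ± 9.06 (SD, n = 3 each), with a log2 fold change of 0.57 (SE 0.31, adjusted p = 0.260, edgeR).

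The RefSeq promoter table used here (GRCh38.p14) matched 2 of the 10 genes, HBD and HBM, which are a weakly detected member of the beta cluster and the member of the alpha cluster at 0. They are printed to show the sequence before the start of these low genes. The 250 bases upstream of the start of HBD (chr11:5234484-5234733, minus strand) and of HBM (chr16:165728-165977, plus strand) are given 5′ to 3′ on the gene's strand. Capitals mark, on either strand, the letters CCAAT (bound by the factor NF-Y), the letters CACCC (bound by factors of the KLF family) and the letters GATA (bound by the factors of that name), which are known elements of globin promoters.
HBD: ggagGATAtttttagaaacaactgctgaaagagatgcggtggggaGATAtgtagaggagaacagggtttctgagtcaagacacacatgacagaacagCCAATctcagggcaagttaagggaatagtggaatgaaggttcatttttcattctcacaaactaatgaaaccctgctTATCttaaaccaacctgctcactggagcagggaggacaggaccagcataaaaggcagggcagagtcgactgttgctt
HBM: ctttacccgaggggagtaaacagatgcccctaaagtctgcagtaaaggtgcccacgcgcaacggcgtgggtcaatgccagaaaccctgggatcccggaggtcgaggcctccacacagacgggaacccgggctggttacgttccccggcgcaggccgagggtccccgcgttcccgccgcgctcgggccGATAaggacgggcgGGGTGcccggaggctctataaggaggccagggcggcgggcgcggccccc
HBD held CCAAT 153 to 149 bases before the start and GATA at 246 to 243, at 205 to 202 and, on the opposite strand, at 77 to 74 bases, with no CACCC. HBM held GATA 63 to 60 bases before the start and CACCC on the opposite strand 49 to 45 bases before it, with no CCAAT. Of 35116 promoters of the same length, 32.0% held CCAAT, whereas 54.7% held the letters CACCC and 45.6% held the letters GATA. A match is a description of letters, and a missing one says only that these letters are not in this window. The promoters of HBE1, HBG1, HBG2, HBB, HBZ, HBA1, HBA2 and HBQ1 were not matched.

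Levels were compared between genes per kilobase of transcript. In sgCtrl, HBG1 and HBG2 came first at 9502 ± 3412 and 9082 ± 3311 TMM-normalized cpm per kilobase (SD, n = 3 each). HBE1 (1803 ± 296), HBA2 (1666 ± 143) and HBA1 (1653 ± 188) followed, and their libraries overlapped, so no order among these was beyond the spread. HBZ was lower, at 874 ± 158. HBQ1 (38.1 ± 7.32) and HBD (35.7 ± 5.72) overlapped and lay far below.

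In sgN6AMT1 the order was the same at the top, with HBG1 at 19570 ± 7032 and HBG2 at 18801 ± 6713 TMM-normalized cpm per kilobase. HBE1, at 2908 to 3965, now lay above HBA1, at 1596 to 1908, in all libraries. HBZ had a mean of 667 ± 35.7, HBQ1 of 55.7 ± 17.2 and HBD of 24.8 ± 11.5 (SD, n = 3 each).

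The globin genes together held a larger part of each sgN6AMT1 library than of any sgCtrl library. They took 1.23%, 1.26% and 1.88% of all counts in control cells and 1.94%, 2.50% and 3.50% in depleted cells. All sgN6AMT1 libraries lay above all sgCtrl libraries, though sgCtrl replicate 3 and sgN6AMT1 replicate 1 were close. The 95% Wilson interval of the sgCtrl replicate 3 share, the widest, was 1.85% to 1.91%, which covers counting error only. The means were 1.46% ± 0.365 and 2.65% ± 0.790 (SD, n = 3 each), and a two-sided exact permutation test gave p = 0.1 for the difference of 1.19 percentage points, the smallest p that 3 against 3 libraries allow. Without mt-DNA-encoded genes in the denominator the difference was 1.15, and without sgN6AMT1 replicate 3, the highest library, it was 0.765. With each near-identical pair entered as the mean of its genes over an unchanged total it was 0.633, where the smaller counts of the pairs themselves lower the difference.

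With this share, 8 shares were compared in all, the smallest adjusted p being 0.267 (Benjamini-Hochberg over the 8 exact tests). None could pass 0.05, as 3 against 3 libraries allow no exact p under 0.1. As the shares of the stages add up to the whole, they are not independent of each other. Shares within a single cluster are not among the 8 and carry unadjusted p-values.

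The fetal genes HBG1 and HBG2 made up 66.4%, 72.5% and 80.5% of the globin counts in control cells and 78.4%, 82.8% and 85.5% in sgN6AMT1. The conditions overlapped, since sgCtrl replicate 3 exceeded sgN6AMT1 replicate 1. The means were 73.1% ± 7.04 and 82.2% ± 3.59 (SD, n = 3 each; exact permutation p = 0.2). The difference of 9.09 percentage points was 5.74 without sgCtrl replicate 1. Within the beta cluster alone the fetal share was 87.8%, 90.4% and 92.0% in control cells and 89.4%, 91.4% and 92.6% in sgN6AMT1, a difference of 1.08 percentage points (exact permutation p = 0.6).

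The embryonic genes HBE1 and HBZ together made up 15.8%, 12.9% and 9.91% of globin counts in control cells and 11.98%, 9.71% and 8.27% in sgN6AMT1. The means were 12.9% ± 2.97 and 9.99% ± 1.87 (SD, n = 3 each; exact permutation p = 0.2), with overlap. The difference of -2.88 percentage points was -1.40 without sgCtrl replicate 1 and -4.36 without sgCtrl replicate 3. The 2 genes differed in this respect. HBE1 held 9.06%, 7.51% and 6.85% of globin counts in control cells and 9.22%, 7.72% and 6.75% in sgN6AMT1, which are overlapping ranges. HBZ held 6.78%, 5.34% and 3.06% in control cells and 2.76%, 1.99% and 1.52% in sgN6AMT1, which do not overlap.

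Within the alpha cluster, HBZ was 27.9%, 27.0% and 24.4% of the counts in control cells and 22.4%, 21.0% and 19.7% in sgN6AMT1. All control libraries lay above all sgN6AMT1 libraries, and the difference of the means was -5.37 percentage points (exact permutation p = 0.1). The remainder was almost entirely HBA1 and HBA2, with 71.3% to 74.96% in control cells and 76.6% to 78.9% in sgN6AMT1.

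The alpha globins HBA1 and HBA2 were 17.4%, 14.3% and 9.43% of all globin counts in control cells and 9.46%, 7.37% and 6.07% in sgN6AMT1, with means of 13.7% ± 4.00 and 7.63% ± 1.71 (SD, n = 3 each; exact permutation p = 0.2). Their own levels, given above, were at 1.04-fold and 1.03-fold. The adult beta-like genes HBB and HBD were 0.208%, 0.165% and 0.123% in control cells and 0.0429%, 0.0609% and 0.0619% in sgN6AMT1. These did not overlap (exact permutation p = 0.1), but in sgCtrl replicate 1 the 95% Wilson interval was 0.133% to 0.324%.

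The balance between the clusters differed by library. All alpha-like genes together held 24.3%, 19.8% and 12.6% of globin counts in control cells and 12.4%, 9.45% and 7.69% in sgN6AMT1. The conditions did not overlap, though sgCtrl replicate 3 and sgN6AMT1 replicate 1 lay side by side. The means were 18.9% ± 5.93 and 9.83% ± 2.36 (SD, n = 3 each), which differed by -9.08 percentage points (exact permutation p = 0.1). The ratio of fetal to adult alpha counts was 3.83, 5.07 and 8.53 in control cells and 8.29, 11.2 and 14.1 in sgN6AMT1. These ratios overlapped, as sgCtrl replicate 3 exceeded sgN6AMT1 replicate 1.

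**Figure D3:**
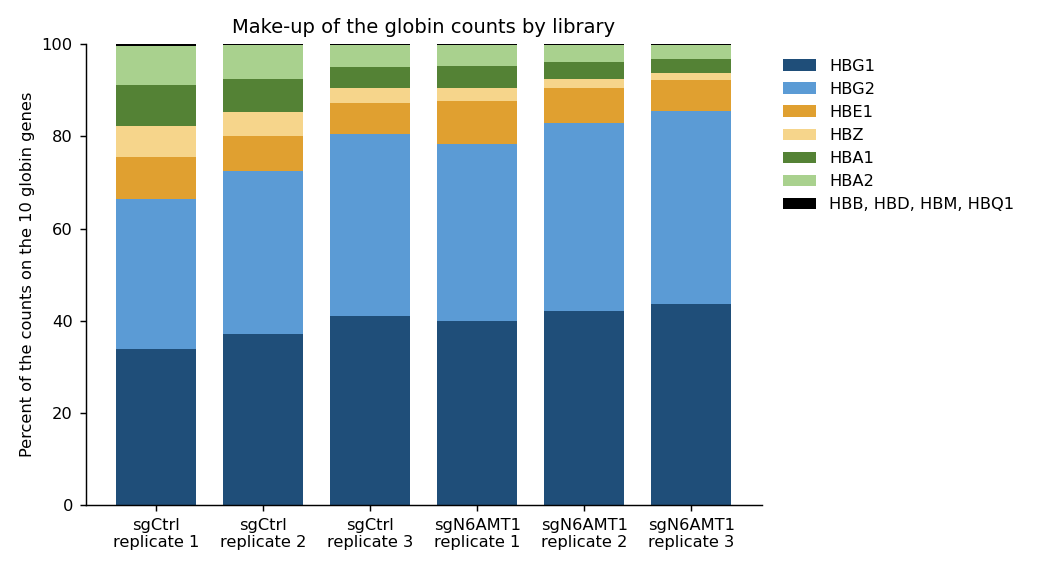
Percent of the counts on the 10 globin genes that fell on each gene (stacked bars, vertical axis from 0 to 100) in each of the 6 libraries. The fetal genes in blue run from 66.4% in sgCtrl replicate 1 to 85.5% in sgN6AMT1 replicate 3, and HBB, HBD, HBM and HBQ1 together are the thin black line on top.

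Within the near-identical pairs the split was nearly constant. HBG1 was 51.2%, 51.3% and 51.1% of the fetal pair in control cells and 51.1%, 50.9% and 51.1% in sgN6AMT1 (exact permutation p = 0.3). HBA1 was 50.6%, 49.6% and 49.3% of the alpha pair in control cells and 50.4%, 49.6% and 49.6% in sgN6AMT1 (exact permutation p = 0.8). In sgCtrl replicate 3, the 95% Wilson interval of the HBA1 share was 46.8% to 51.8%. With shared reads counted in an unknown way, these splits cannot be read as promoter usage.

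Genes whose levels over the 6 libraries were most like those of a globin were ranked by root mean square distance of centred log2 values among 4168 genes with a mean of at least 50 TMM-normalized cpm, as a description with no test. HBE1 was closest to ABHD16A (0.0677), FTL (0.0790) and TRPV2 (0.0911). HBG1 was closest to HBG2 (0.00764), then to TOMM7 (0.167) and RPS29 (0.190). HBG2 had the same list, with TOMM7 at 0.166 and RPS29 at 0.192. Apart from each other the fetal pair had no gene as near as HBE1 had. The distance is not scaled to the spread of a gene, and HBG1 ran from 4182 to 15983 TMM-normalized cpm, against 944 to 2470 for HBE1. HBZ was closest to CPSF1 (0.0537), SDCCAG3 (0.0573) and NAT10 (0.0691). HBA1 was closest to HBA2 (0.0274), CDC37 (0.0341) and WDR61 (0.0433), and HBA2 to HBA1, MFN2 (0.0302) and KDM5B (0.0367).

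Genes tied to globin or heme were taken as 5 lists, and genes taken as neighbours of the clusters as 2 more. Of the 112 tested genes of the 5 lists 21 passed the same edgeR threshold in either direction, and of the 21 tested neighbours 3 did. Together these were 24 of 133 or 18.05%, against 9.85% of all genes tested. As the lists were chosen with earlier results of these data known, the 2 shares are a description and not an independent comparison. Of these 24, 19 were also called with DESeq2 and 5 in each of the 6 fits that left out 1 library, among them ALAS2, HSPA1A, PCBP2 and STAT5A. The others were called in 1 to 5 of these 6 fits. Of the 24, 0 changed sign under an alternative, but they were picked as called in these same libraries, so this shows nothing on stability. Without sgCtrl replicate 1, sgCtrl replicate 2 or sgN6AMT1 replicate 2, 9 genes of the lists were called in each case. Over all genes, 301 of 8594, 220 of 8651 and 495 of 8456 tested were called in these fits, against 820 of 8324 with all libraries. Without sgCtrl replicate 3 it was 752 of 8626, and without sgN6AMT1 replicate 3 it was 538 of 8449. Counts per list below with 1 library left out are to be read beside these numbers. The median log2 fold change of all genes tested was 0.01.

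Of 31 tested transcription factors of the globin loci, 1 was higher and 5 were lower, against 5.09% and 4.76% of all genes, with a list median of -0.39. Without sgCtrl replicate 1 the list median was -0.20 with 2 higher and 1 lower, without sgCtrl replicate 2 it had 0 higher and 3 lower, and without sgN6AMT1 replicate 2 it had 1 higher and 1 lower. LYL1, a helix-loop-helix factor related to TAL1, had 63.2, 59.99 and 62.5 TMM-normalized cpm in control cells and 92.7, 104 and 144 in sgN6AMT1 (log2 fold change 0.90, adjusted p = 0.00995, edgeR). STAT5A, a signal transducer downstream of the erythropoietin receptor, fell from 489, 385 and 414 to 208, 248 and 286 (-0.79, adjusted p = 0.00486, edgeR). LMO2, the bridging protein of the GATA1 and TAL1 complex, was at -1.01, ZFPM1 (FOG1), a cofactor of GATA1, at -0.99, the CCAAT-binding subunit NFYA at -1.21 and MYB, a progenitor factor, at -0.49, with adjusted p-values of 0.0239, 0.0383, 0.0417 and 0.0429 in edgeR. DESeq2 did not call ZFPM1 or NFYA, and MYB was called in 3 of the 6 fits without 1 library.

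GATA1, the central erythroid factor, was at 113 ± 36.3 TMM-normalized cpm in control cells and 109 ± 10.99 in sgN6AMT1 (SD, n = 3 each; log2 fold change -0.03, adjusted p = 0.945, edgeR). KLF1, the factor of adult beta globin, was at 73.8 ± 12.2 and 73.4 ± 25.3 (SD, n = 3 each; 0.04, adjusted p = 0.936, edgeR). NFE2, which binds the locus control region, was at -0.26 (adjusted p = 0.353, edgeR). TAL1 had 40.3, 11.5 and 18.9 TMM-normalized cpm in control cells and 37.9, 46.9 and 52.4 in sgN6AMT1 (1.02, adjusted p = 0.0504, edgeR), with sgCtrl replicate 1 inside the sgN6AMT1 range.

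Of 38 tested repressors of the fetal globin genes, 0 were higher and 5 were lower, against 4.76% of all genes lower, with a list median of -0.19. Without sgCtrl replicate 1, sgCtrl replicate 2, sgN6AMT1 replicate 2 or sgN6AMT1 replicate 3, 1 repressor was called in each case, and the list median was -0.12 without sgCtrl replicate 1 and -0.33 without sgCtrl replicate 3. Among the 5, RCOR1, a partner of the demethylase KDM1A, was at -0.80, the NuRD subunits MTA1 at -0.65 and GATAD2A at -0.61, and the Polycomb protein BMI1 at -0.50, with adjusted p-values of 0.0370, 0.0351, 0.0453 and 0.0489 in edgeR. DESeq2 did not call RCOR1 or BMI1, and each of RCOR1 and BMI1 was called in 1 of the 6 fits without 1 library.

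The best known fetal globin repressors were scarce in these cells. BCL11A had 0 counts in all 6 libraries. ZBTB7A (LRF) had 8, 6 and 7 counts in control cells and 2, 55 and 19 in sgN6AMT1, and SOX6 had 17, 9 and 11 and then 5, 42 and 33, and the edgeR filter on low counts left both out. With DESeq2, which tested them, ZBTB7A was at -0.49 (adjusted p = 0.746) and SOX6 at -1.06 (adjusted p = 0.208). HBS1L, beside a region tied to fetal hemoglobin levels, was at -0.09 (adjusted p = 0.735, edgeR).

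The list of fetal-stage RNA-binding factors also holds the chromatin protein HMGA1. Of its 9 tested genes, 2 were lower and 0 higher, against 4.76% of all genes lower, with a list median of -0.48. The count was 0 without sgCtrl replicate 1, sgCtrl replicate 2 or sgN6AMT1 replicate 2 and 1 without sgN6AMT1 replicate 3. IGF2BP2, which binds and stabilizes mRNAs, was at -0.79 and HMGA1, a chromatin protein of fetal cells, at -0.48 (adjusted p = 0.0173 and 0.0403, edgeR). LIN28B, whose product raises fetal hemoglobin in adult erythroid cells, had 53.8, 66.9 and 64.8 TMM-normalized cpm in control cells and 47.4, 37.1 and 39.3 in sgN6AMT1 (-0.62, adjusted p = 0.0688, edgeR). IGF2BP1 was at -0.21 (adjusted p = 0.463, edgeR).

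Of 14 tested genes for globin chaperoning and for the handling of globin mRNA or protein, 1 was higher and 5 were lower, against 5.09% and 4.76% of all genes, with a list median of -0.21. The number lower was 1 without sgCtrl replicate 1 and 2 without sgCtrl replicate 2 or sgN6AMT1 replicate 2, and the list median was -0.11 without sgN6AMT1 replicate 3. PCBP2, which binds the 3′ end of alpha globin mRNA, fell from 633, 549 and 641 TMM-normalized cpm in sgCtrl to 450, 274 and 330 in sgN6AMT1 (-0.81, adjusted p = 0.00773, edgeR). Its paralog PCBP1 was at -0.75 (adjusted p = 0.0108, edgeR). The poly(A)-binding proteins PABPC1 and PABPC4 were at -0.78 and -0.53 (adjusted p = 0.0173 and 0.0246, edgeR). The list also holds CAT, the catalase, which was at -0.62 (adjusted p = 0.0279, edgeR) and is among the 5 lower. HSPA1A, an inducible HSP70 that has a near-identical copy, rose from 512, 463 and 413 to 698, 804 and 932 (0.81, adjusted p = 0.00389, edgeR). AHSP, the alpha globin chaperone, had 6, 4 and 7 counts in control cells and 3, 29 and 33 in sgN6AMT1, too few for the edgeR filter, and was at -0.24 with DESeq2 (adjusted p = 0.896).

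Heme synthesis and iron handling had 2 of 20 tested genes higher and 0 lower, against 5.09% and 4.76% of all genes, with a list median of 0.10. Called in either direction, the list was thus near the 9.85% of all genes. ALAS2, the erythroid enzyme of the first step of heme synthesis, had 54, 62 and 72 counts in control cells and 243, 1318 and 1261 in sgN6AMT1, or 72.6, 71.5 and 84.9 TMM-normalized cpm against 256, 241 and 324. Every sgN6AMT1 library of ALAS2 lay far above every sgCtrl library, and it rose by 1.84 on the log2 scale (SE 0.17, 3.59-fold, adjusted p = 6.59e-06, edgeR). FTL, the light chain of the iron store ferritin, rose from 2159, 2042 and 2643 to 3927, 3634 and 4873 (0.86, adjusted p = 0.00497, edgeR), and was not called without sgCtrl replicate 2 (adjusted p = 0.0604, edgeR).

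**Figure D4:**
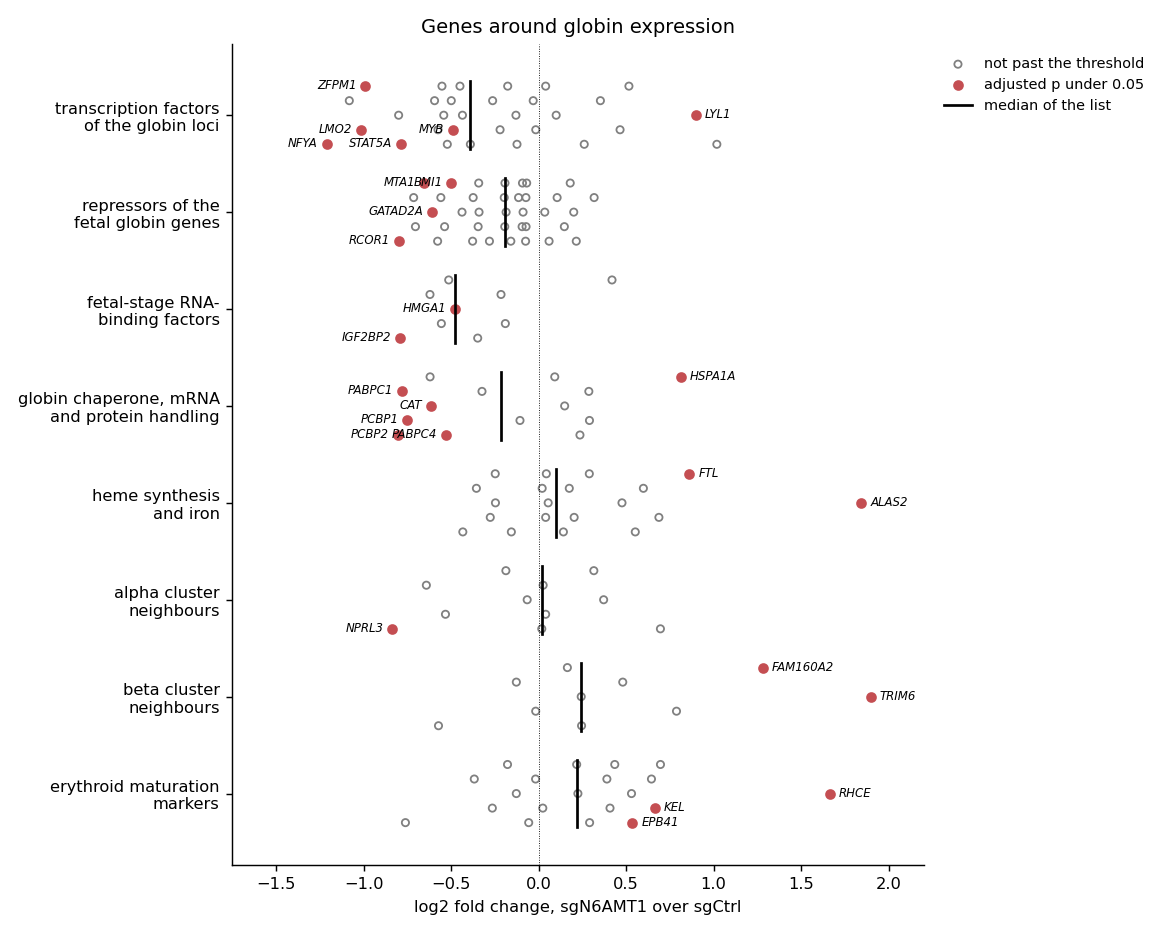
Log2 fold change (horizontal axis, sgN6AMT1 over sgCtrl) of the tested genes of 8 lists (rows), with genes at an edgeR adjusted p under 0.05 filled and named and the median of each list as a vertical bar. ALAS2, at 1.84, lies to the right in the heme row, and the called repressors of the fetal genes that are shown lie left of 0.

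Genes listed as neighbours of the clusters were also read, and their distances from the clusters were not measured. Of 11 tested neighbours of the alpha cluster 1 was lower (4.76% of all genes), NPRL3, whose introns hold the alpha globin enhancers, at 61.8, 50.8 and 46.0 TMM-normalized cpm in control cells and 32.7, 27.2 and 30.1 in sgN6AMT1 (-0.84, adjusted p = 0.0279, edgeR). NPRL3 was not called without sgCtrl replicate 1, sgCtrl replicate 2 or sgN6AMT1 replicate 2. Of 10 tested neighbours of the beta cluster 2 were higher (5.09% of all genes), FAM160A2 at 1.28 (adjusted p = 0.0117, edgeR) and the ubiquitin ligase gene TRIM6 at 1.90 (adjusted p = 0.0186, edgeR). TRIM6, which is also part of a readthrough transcript with its neighbour, had 1, 5 and 3 counts in control cells and was not called by DESeq2. FAM160A2 was not called without sgCtrl replicate 2, nor TRIM6 without sgCtrl replicate 1, sgCtrl replicate 3 or sgN6AMT1 replicate 2. The pseudogene HBBP1 was not analysed here.

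Of 22 tested markers of erythroid maturation, 3 were higher and 1 was lower, against 5.09% and 4.76% of all genes, with a list median of 0.22. The number higher was 1 without sgCtrl replicate 1, 2 or 3 or without sgN6AMT1 replicate 2, and the list median was 0.13 without sgCtrl replicate 2. RHCE, a Rh blood group gene with a near-identical copy, rose from 6.72, 10.4 and 18.9 TMM-normalized cpm in sgCtrl to 31.6, 38.0 and 43.96 in sgN6AMT1 (1.66, adjusted p = 0.00497, edgeR). EPB41, a protein of the membrane skeleton, and KEL, the Kell blood group gene, were at 0.54 and 0.66 (adjusted p = 0.0246 and 0.0454, edgeR). KEL was not called by DESeq2 (adjusted p = 0.0901), and neither gene was called in edgeR without sgCtrl replicate 1, 2 or 3 or without sgN6AMT1 replicate 2, nor KEL without sgN6AMT1 replicate 3.

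The share of mt-DNA-encoded counts moved with the conditions, and with those genes left out of the scaling HBE1 was at 0.88 and HBG1 at 1.04. Depth moved too, as 2 sgN6AMT1 libraries were sequenced several times deeper than the others. With these thinned at random to 858710 counts, HBE1 was at 0.90 (adjusted p = 0.00313, edgeR) and HBG1 at 1.04 (adjusted p = 0.0131, edgeR), and the fetal share of globin counts differed by 9.05 percentage points. Transcript GC content was 50.6% to 51.4% in the beta-like genes and 64.4% to 68.6% in the alpha-like genes. With the trend of GC content and length removed, HBE1 was at 0.71 (adjusted p = 0.00300, edgeR) and HBG1 at 0.88 (adjusted p = 0.0108, edgeR).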

How the data were processed

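K562 RNA-Seq libraries of 3 sgCtrl and 3 sgN6AMT1 infections were used. According to the study's methods and the labels, the authors trimmed reads with cutadapt, mapped them to GRCh38 with HISAT2 and counted them on genes of Ensembl release 84, and the deposited counts are raw counts per gene with no normalization. The counting tool, the use of strand and the handling of reads that fit several genes are not given in the sources used here.

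Counts were filtered with filterByExpr, scaled by TMM and passed to the quasi-likelihood test of edgeR 4.0.16 (glmQLFit, glmQLFTest; R 4.3.3) over all 6 libraries without covariates, after the fit was tested on simulated data. For shares, exact two-sided permutation tests were run (scipy 1.17.1, Python 3.11.15), and Wilson intervals are at 95%. Alternatives were DESeq2 1.42.0, other scalings, filters and thresholds, summed near-identical genes, thinning, a replicate block and each library left out. Chosen after seeing the data were removal of a trend with GC content and length, also with the replicate block, and pairs entered as the mean of their genes. The members and gene lists were chosen with earlier results of these data known. Named were the members, N6AMT1, 15 set genes, the called genes of each list (at most 8, by p) and the 3 most similar genes per member with a mean of at least 50 TMM-normalized cpm. P-values measure the spread between these infections. Values of a few genes are not reported here, and the plot of list genes leaves them out while the list counts and medians include them.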

Additional observations from a re-analysis of the deposited data

How the results depend on the processing

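At an adjusted p under 0.01 or with DESeq2, 1 globin gene was called in place of 3, and with 1 library left out 0 to 3 were called, 0 without sgCtrl replicate 2. The other scalings and filters, the thinned libraries and the replicate block each called 3, and removal of the GC content and length trend called 4. With the pairs summed, HBE1 and the single fetal row were called. Of the 7 lists (5 of genes tied to globin or heme and 2 of cluster neighbours), 24 genes were called. At an adjusted p under 0.01 it was 7 genes, after thinning 15 and with 1 library left out 9 to 28. It was 32 with the replicate block and 41 with the GC content and length trend removed and the replicate block. Whether the replicate numbers pair the libraries is not settled. Correlations of same-numbered libraries were -0.00, 0.08 and 0.19. sgN6AMT1 replicates 2 and 3 were closest to the sgCtrl library of the same number, and sgN6AMT1 replicate 1 to sgCtrl replicate 2 (0.14). With the replicate block 1195 genes were called in place of 820. HBE1 was then at 0.89 (adjusted p = 9.05e-05, edgeR) and HBG1 at 1.04 (SE 0.14, adjusted p = 9.93e-06, edgeR). Over all genes, 630 were called with DESeq2, 1201 without a filter, 1362 with the trend removed and the replicate block, 301 and 220 without sgCtrl replicates 1 and 2, and 495 and 538 without sgN6AMT1 replicates 2 and 3. Without a filter the median log2 fold change of all genes was 0.12.

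The sign turned for the alpha globins. HBA1 was at -0.0059 without sgCtrl replicate 2 and -0.038 without sgN6AMT1 replicate 3, and HBA2 at -0.046 without the latter. With the trend removed HBA1 and HBA2 were at -0.20 and -0.20, and with the replicate block added at -0.19 and -0.20. The adult alpha share differed by 4.99 percentage points within the alpha cluster, and the HBA1 share of its pair by -0.199 to 0.459 with 1 library left out. The paired differences of shares with a replicate block cannot give an exact p under 0.25 with 3 pairs, so they show nothing on stability. The causes were not tested. HBB, HBM, ZBTB7A, SOX6 and AHSP are limited by depth.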
